A study of Canis lupus familiaris with 20 samples.

Results

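Metallothioneins are small cysteine-rich proteins that bind zinc and copper ions in the cytosol. Their genes are switched on by the zinc sensor MTF1 when free metal rises, and also by glucocorticoids, interleukin 6 signalling and oxidants, which makes their transcripts a common marker of metal load and stress in many tissues. MT2A and MT1E encode 2 such proteins, and in the dog both lie in a cluster of metallothionein genes on chromosome 2.

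All probes named MT2A or MT1E were taken from a canine Agilent array with 2 colours. They came to 3 of 42034 probes, covering 2 of 10342 named genes. MT2A had 2 probes. MT1E had 1, which the array design names MT1F and whose RefSeq transcript now carries the symbol MT1E. A filter on dim spots kept 16130 probes, and the 16008 of these with a value in all 10 dogs were tested. Probe 1 of MT2A and the MT1E probe were among them, while probe 2 of MT2A failed the filter. Both genes were chosen with results of these data known, so their levels and differences are given below as a description with no test.

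The samples were muscle of dogs aged 2 years, 4 affected by Duchenne muscular dystrophy (DMD), 2 DMD escapers and 4 normal. DMD is the loss of the muscle protein dystrophin, and an escaper is a dog with the disease whose course is known to be mild. The labels name neither the muscle taken nor the mutation, and give no treatment. Each dog was hybridised on 2 arrays, with its RNA in Cy5 on 1 and in Cy3 on the other, against a common reference, which was RNA of 1 normal individual's muscle, so every value is a log2 ratio of dog over reference. In bulk muscle, more cells of a type and more RNA per cell cannot be told apart. All 5 slides held dogs of a single group each and the escapers shared 1 slide, so that slide and the escaper group cannot be told apart. On each array the dog channel was well above background for 30.5% to 60.2% of probes, and across probes both arrays of a dog correlated at r = 0.627 to 0.939. The 6 measured markers of skeletal fibres, among them MYH7, TNNT3, TTN and DES, were well above background on 20 of 20 arrays.

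The probes are shown by their last 30 bases, because the letters show how distinct the probes of this small family are. Capitals mark AATAAA, the common polyadenylation signal, searched on the printed strand only.
MT2A probe 1: acgtgaattatAATAAAagctgtcgacttt
MT2A probe 2: accgaaggctggggagagacccctagcccc
MT1E: tatagagcaagcaacatgtacaaacctgca
Unnamed probe 1: cAATAAAttcatctagactcttctggcaaa
MT3: ctctgccagcccctggcaagtgacAATAAA
MT2A probe 1 lies at chr2:62488004-62488063 on the minus strand in the array's own coordinates, whose genome build is not given in the sources used here. The AATAAA starts at base 42 of 60. The MT1E probe lies on an unplaced sequence (chrUn:85562721-85562780, plus strand), and MT2A probe 2 has no position and was designed on a liver sequence tag. The unnamed probe 1, chosen by position alone, lies 4906 bases from MT2A probe 1 at chr2:62483098-62483154 on the same strand, and MT3, which encodes a further metallothionein known from brain, lies at chr2:62504930-62504989. In RefSeq's annotation of the dog assembly UU_Cfam_GSD_1.0 MT1E and MT2A are neighbours, but the unnamed probe has no gene name in the files and is given none here. MT2A probe 1 and the MT1E probe shared no run longer than 5 bases, and MT2A probe 1 and the unnamed probe none longer than 9. AATAAA occurred in 2432 of the 42034 probes (5.79%).

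MT2A was low against the reference in every normal dog and spread widely among dystrophic dogs. Its log2 ratio was 0.81, −3.09, −4.25 and −1.26 in the affected dogs. The escaper dogs had −4.60 and 0.00, and the normal dogs −4.36, −4.58, −4.85 and −5.01. Affected dog 1 and escaper dog 2 were near or above the reference, affected dog 4 lay in between, and escaper dog 1 lay inside the normal range on this scale. The 4 affected values were all above the 4 normal values, but the lowest of them, in affected dog 3, was −4.25 beside −4.36 in normal dog 1, a smaller step than the gap of 1.05 between the dye orientations of normal dog 2. Of all 16008 tested probes, 5.28% were higher in all 4 affected dogs than in any normal dog.

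The means were −1.95 ± 2.21 in affected dogs (SD, n = 4), −2.30 ± 3.25 in escaper dogs (n = 2) and −4.70 ± 0.29 in normal dogs (n = 4). As measured, affected dogs spanned 5.06 log2 units, a 33.4-fold range, against 0.65 log2 units in normal dogs. Saturated spots stood behind the highest and lowest affected value and behind 3 of the 4 normal values, so these spans, the SDs and their ranks are not exact. The median SD of all tested probes was 0.298 in affected dogs, 0.315 in escaper dogs and 0.162 in normal dogs. MT2A had the 17th largest SD of 16008 probes in affected dogs and the 19th largest in escaper dogs, but the 2777th in normal dogs.

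MT1E was also highest in affected dog 1 and escaper dog 2, with more spread among normal dogs. Its log2 ratio was 1.41, −2.50, −3.17 and −2.39 in the affected dogs. It was −4.13 and −0.37 in the escaper dogs and −2.14, −3.72, −4.33 and −3.97 in the normal dogs. Normal dog 1 stood above 3 of the 4 affected dogs, so the groups overlapped, and only affected dog 1 exceeded every normal dog. The means were −1.66 ± 2.08 in affected dogs (SD, n = 4), −2.25 ± 2.66 in escaper dogs (n = 2) and −3.54 ± 0.97 in normal dogs (n = 4). The SD of MT1E ranked 31st in affected dogs, 66th in escaper dogs and 43rd in normal dogs among the 16008 probes.

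**Figure D1:**
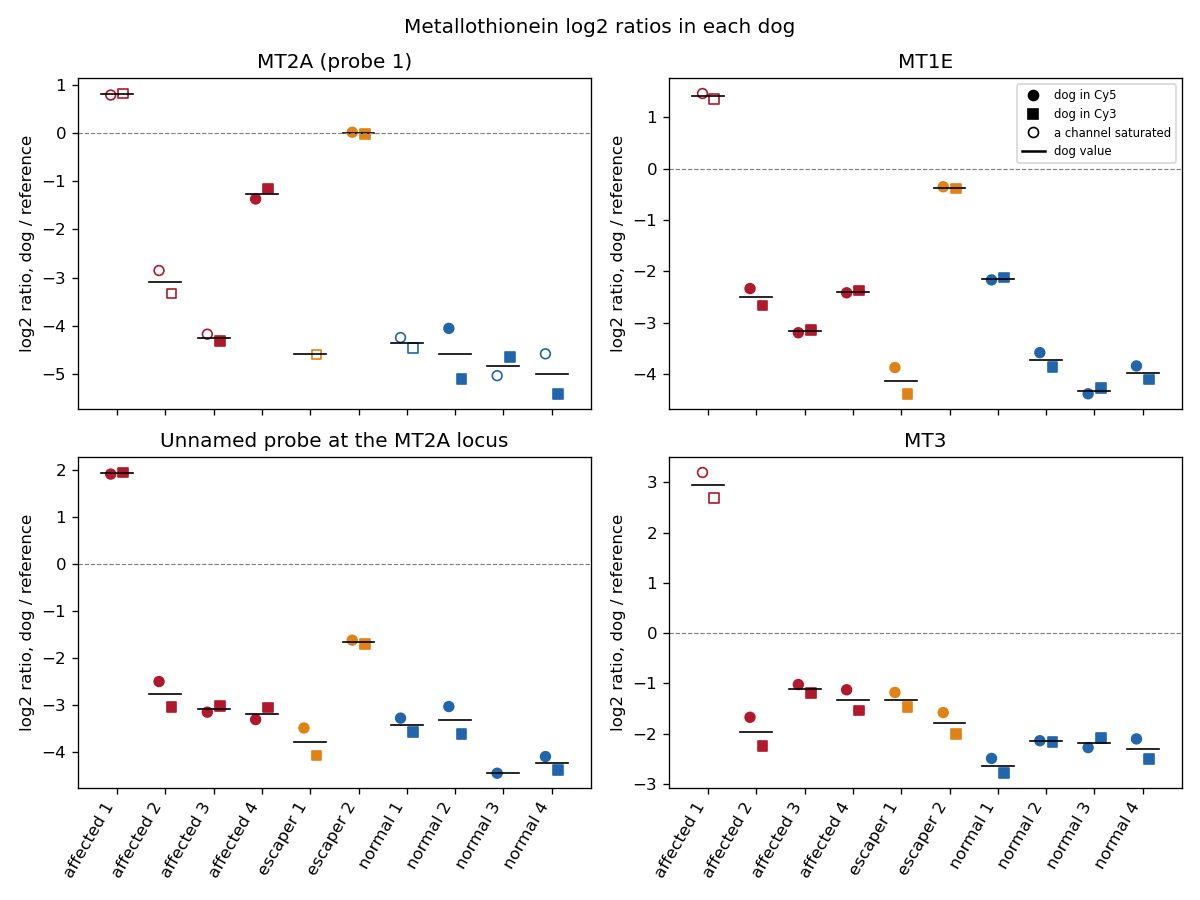
Log2 ratio of dog over reference for MT2A probe 1, MT1E, the unnamed probe 1 and MT3 in each dog, by group; circles are arrays with the dog in Cy5, squares with the dog in Cy3, open symbols have a saturated channel, and black bars are the dog's value. MT2A sits between −4.25 and 0.81 in affected dogs, at −4.60 and 0.00 in escaper dogs and between −5.01 and −4.36 in normal dogs.

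The signals behind these ratios were bright in the reference channel. MT2A probe 1 gave 892 to 65535 scanner units in the dog channel (median 2409 over 20 arrays), against 29440 to 65459 in the reference channel (median 57111). Both channels were well above background on 20 of 20 arrays. The dog channel was saturated on both arrays of affected dog 1, which makes its ratio a lower bound. The reference channel was saturated on 9 arrays, both of affected dog 2, both of escaper dog 1, both of normal dog 1 and 1 each of affected dog 3 and normal dogs 3 and 4, so that the ratios of these dogs are upper bounds. Which of affected dog 3 and normal dog 1 was higher is therefore not settled. A spot of escaper dog 1 carried an outlier flag, and its value rests on the array with the dog in Cy3.

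MT1E was free of saturation in the reference. It gave 1040 to 65535 units in the dog channel (median 2786), against 18590 to 47923 in the reference channel (median 31687), and it was saturated only in the dog channel on both arrays of affected dog 1. The largest gap between dye orientations of a dog was 1.05 for MT2A and 0.52 for MT1E, against a 95th percentile of 0.730 over all probes. The affected dogs spanned far more than these gaps, 5.06 log2 units for MT2A and 4.58 for MT1E.

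**Figure D2:**
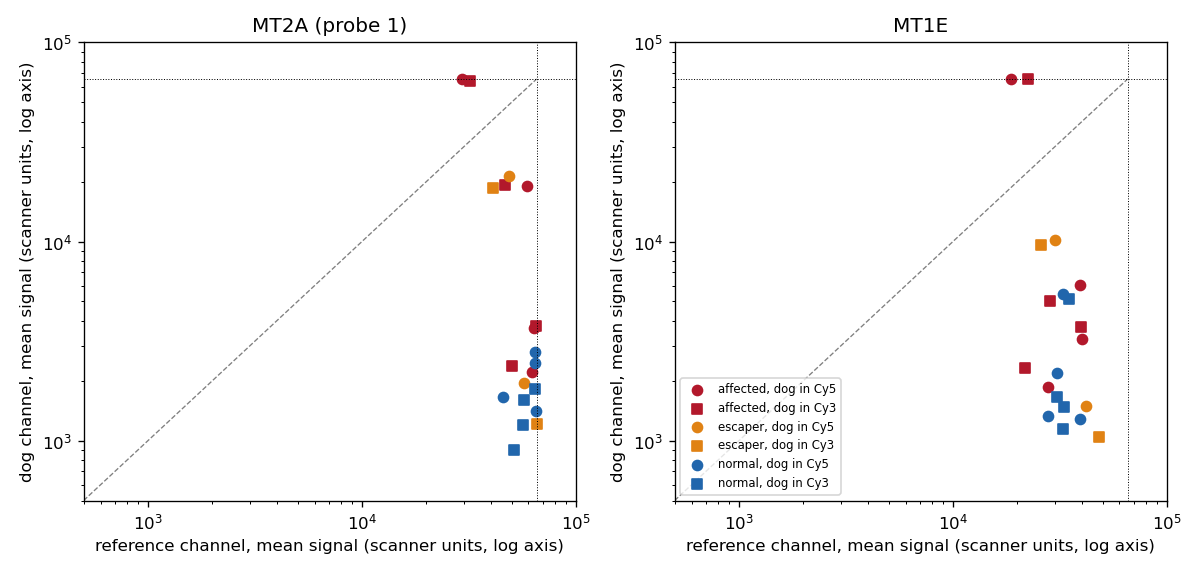
Mean signal in the dog channel against mean signal in the reference channel on each array, in scanner units on log axes, with the scanner ceiling of 65535 dotted and equality dashed. For MT2A the reference channel lies between 29440 and 65459 on every array, while the dog channel runs from 892 to 65535.

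The comparison with the reference asks how far normal dogs lay from another normal individual's muscle RNA. In the normal dogs MT2A was 25.9-fold lower than in the reference, and MT1E was 11.6-fold lower. Because the reference channel of MT2A was saturated in 3 of the 4 normal dogs, its true fold may be larger. Among 16008 tested probes, MT2A had the 2nd lowest mean ratio in normal dogs. The lowest was SPP1, which encodes osteopontin, at −7.55, and the next after MT2A was MYH8, the perinatal myosin heavy chain, at −3.99. MT1E was the 10th lowest. In affected dogs the mean ratio of MT2A ranked 19th lowest and that of MT1E 38th, and in escaper dogs they ranked 11th and 14th. Of the tested probes 0 averaged −4 or below in affected or escaper dogs, and 2 did in normal dogs, those of SPP1 and MT2A. Since the reference is 1 individual, these folds describe that individual as much as the dogs set against it.

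**Figure D3:**
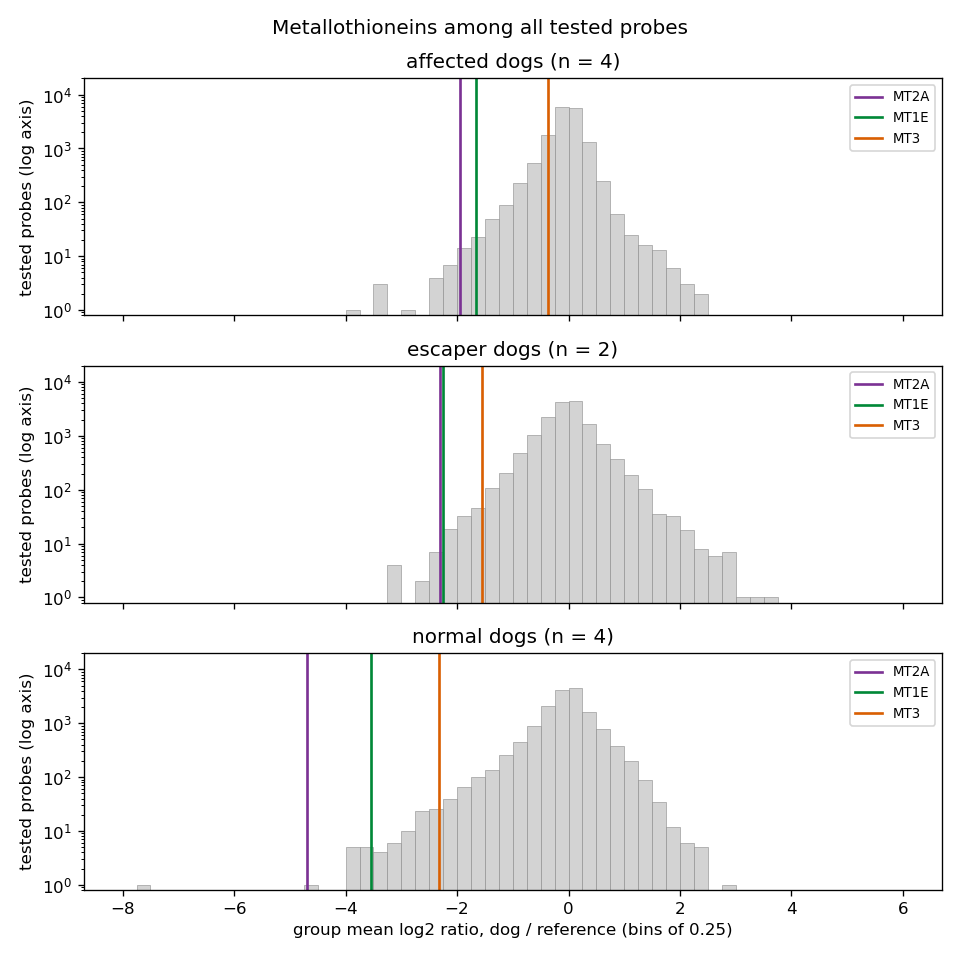
Number of the 16008 tested probes, on a log axis, in bins of the group's mean log2 ratio of dog over reference, for affected, escaper and normal dogs from top to bottom, with lines at MT2A, MT1E and MT3. The MT2A line stands at −1.95 in affected dogs and at −4.70, near the left end, in normal dogs.

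Affected against normal dogs was the first comparison the groups imply. MT2A was 2.75 higher on the log2 scale in affected dogs (SE 1.15 from limma), or 6.72-fold, and MT1E was 1.88 higher (SE 1.09), or 3.68-fold. With saturated spots in both groups, the true MT2A difference may be larger or smaller than this, and that of MT1E larger. The difference was 1.83 for MT2A and 0.85 for MT1E without affected dog 1, so that dog alone moved both values by more than 1.5 times. The mean of both MT2A probes gave 1.31, since probe 2 had ratios of only −0.21 to 0.21 and was well above background in the dog channel on 1 of 20 arrays. The median over all tested probes was 0.02, with 53.0% of probes positive. In the same fit 3 of the 16008 probes passed an adjusted p of 0.05 (0.0187%), and 1992 (12.4%) had an unadjusted p under 0.05.

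Escaper against normal dogs rested on 2 dogs that differed by 4.60 in MT2A and 3.76 in MT1E. The mean difference was 2.40 for MT2A (SE 1.41) and 1.29 for MT1E (SE 1.33). It was 4.70 and 3.17 without escaper dog 1, against 0.10 and −0.59 without escaper dog 2, so the sign of the MT1E difference turned with the choice of dog. The ratio of 0.00 of MT2A in escaper dog 2 also moved with the scaling, to −0.78 with median centring in place of loess, −0.24 with the processed signals and −0.21 in the authors' deposited table. Escaper dog 1, at −4.60 with loess, was at −6.04 with median centring, below all 4 normal dogs, and at −5.13 with the processed signals. In the authors' deposited table it was at −4.32, above all 4 normal dogs. That last value also averages in its outlier-flagged Cy5 spot, which the other scalings drop, so it differs by more than scaling. With median centring the difference was 1.44 for MT2A and 0.81 for MT1E. In the dog channel escaper dog 2 gave 21417 and 18669 units, against 48686 and 41171 units in the reference channel. Escaper dog 2 was above all 4 normal dogs in MT2A under each of these scalings. In this fit 0 probes (0%) passed, and 2953 (18.4%) had an unadjusted p under 0.05 in limma.

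Escaper against affected dogs showed no stable order. The difference was −0.35 for MT2A (SE 1.41) and −0.59 for MT1E (SE 1.33), and both were smaller than their SE. For MT2A it was 0.57 without affected dog 1 and 1.95 without escaper dog 1, against −1.12 without affected dog 3, −0.73 without affected dog 2, −0.12 without affected dog 4 and −2.65 without escaper dog 2. For MT1E the sign turned as well, to 0.44 without affected dog 1 and 1.30 without escaper dog 1, against −1.09 without affected dog 3 and −2.47 without escaper dog 2. In limma 0 of the 16008 probes (0%) passed, and 835 (5.22%) had an unadjusted p under 0.05. By mean, MT2A and MT1E were both ordered affected, escaper and normal from high to low, and affected and escaper dogs differed by less than the spread within either group.

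The probes of neighbouring loci showed affected dog 1 apart too. The unnamed probe 1 had ratios of 1.93, −2.77, −3.10 and −3.19 in affected dogs and −3.79 and −1.67 in escaper dogs, against −3.43, −3.33, −4.46 and −4.25 in normal dogs. Its affected and normal values did not overlap, as for 5.28% of all probes in this direction, and the mean difference was 2.08 (SE 1.06). The step from −3.33 in normal dog 2 to −3.19 in affected dog 4 was smaller than the gap of 0.58 between the dye orientations of normal dog 2. The −4.46 of normal dog 3 rests on 1 array, since its other spot carried an outlier flag. In the deposited table, which keeps that spot, it was −3.60. MT3 had ratios of 2.95, −1.96, −1.11 and −1.33 in affected dogs and −1.32 and −1.79 in escaper dogs, against −2.64, −2.15, −2.18 and −2.30 in normal dogs. The dog channel of MT3 was saturated on both arrays of affected dog 1, so its 2.95 is a lower bound. As measured, MT3 was 1.96 higher in affected than in normal dogs (SE 0.89, limma adjusted p = 0.411), and 0.85 higher without affected dog 1. It was 0.76 higher in escaper than in normal dogs (limma adjusted p = 0.735). While MT2A and MT1E were near the reference in escaper dog 2 with loess, MT3 was lower in escaper dog 2 than in escaper dog 1. With median centring MT2A and MT1E stood at −0.78 and −1.11 in escaper dog 2. The 2 escaper dogs were 0.47 apart in MT3, beside a gap of 0.42 between the dye orientations of escaper dog 2. MT4, known from stratified epithelium, failed the filter, with ratios of −0.52 to −0.22.

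Across the 10 dogs, which share the reference, MT2A and MT1E moved together with Pearson's r = 0.916 and Spearman's rho = 0.891, and r = 0.861 without affected dog 1. Between MT2A and the unnamed probe 1 r was 0.846, and 0.823 without affected dog 1. Between MT1E and MT3 r was 0.726, but 0.0229 without affected dog 1, so this likeness rested on that dog. The log2 ratio of MT2A minus that of MT1E was −0.60, −0.59, −1.08 and 1.14 in affected dogs, −0.47 and 0.37 in escaper dogs and −2.21, −0.86, −0.52 and −1.03 in normal dogs. MT2A had the higher ratio in affected dog 4 and escaper dog 2. In affected dog 1 both dog channels were saturated, which leaves the sign unsettled, and normal dog 1 stood out by an MT1E ratio far above its MT2A ratio.

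The genes whose ratios followed MT2A most closely over the 10 dogs were ranked by Pearson's r among 6183 genes, as a description. The first 6 were TXN (thioredoxin, a reducing protein of the cytosol, r = 0.983), PDIA6 (a disulfide isomerase of the endoplasmic reticulum, 0.977), PTGR1 (a prostaglandin reductase, 0.974), SLC12A4 (a potassium chloride cotransporter, 0.973), CTNNA1 (alpha catenin, 0.972) and FUCA2 (a fucosidase, 0.970). Without affected dog 1 these r were 0.951 to 0.977. TXN had ratios of 0.63, −1.48, −1.51 and −0.48 in affected dogs, −1.60 and 0.00 in escaper dogs and −1.64, −1.90, −2.01 and −1.85 in normal dogs. PDIA6 had 0.37, −1.68, −1.50 and −0.50 in affected dogs, −1.88 and 0.34 in escaper dogs and −2.21, −2.16, −2.20 and −2.27 in normal dogs. In both genes the 3 highest dogs were affected dog 1, affected dog 4 and escaper dog 2, as for MT2A.

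At the other end lay ASB12, an adaptor of ubiquitin ligases (r = −0.972), PHPT1, a phosphohistidine phosphatase (−0.972), and SMARCD3, a chromatin remodelling subunit of muscle (−0.971). SMARCD3 had −1.48, 0.17, 0.37 and −0.22 in affected dogs, 0.36 and −1.04 in escaper dogs and 0.76, 0.51, 0.75 and 0.91 in normal dogs. In all, 124 of the 6183 genes had an r of 0.9 or more with MT2A, so close likeness to MT2A was shared by many genes in these dogs.

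**Figure D4:**
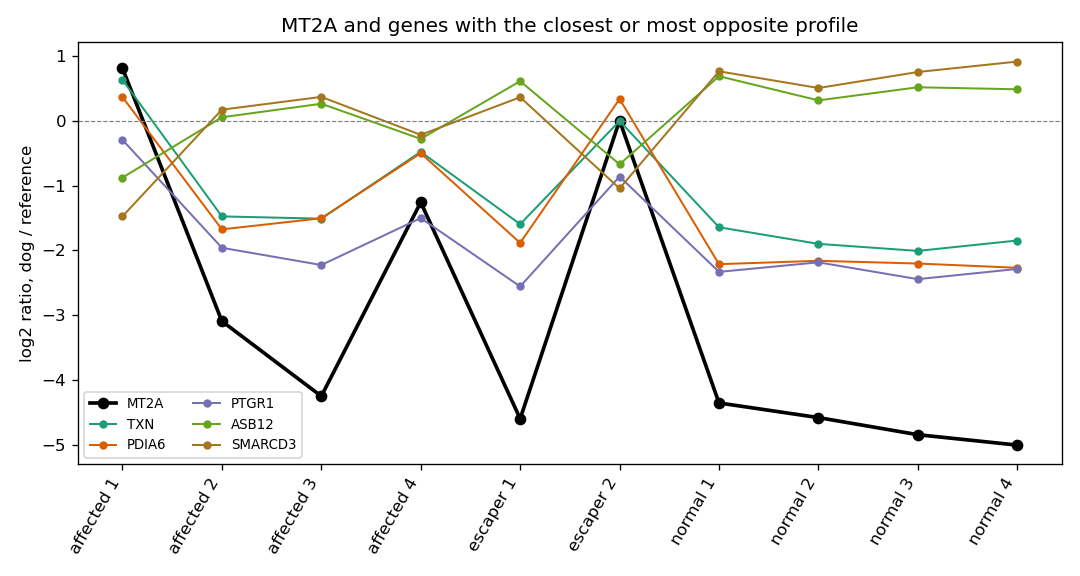
Log2 ratio of dog over reference in each of the 10 dogs for MT2A, the genes TXN, PDIA6 and PTGR1 with the highest r, and the genes ASB12 and SMARCD3 at the low end; lines only join the points of a gene. TXN runs from 0.63 in affected dog 1 to −2.01 in normal dog 3, and SMARCD3 from −1.48 to 0.75 in the same dogs.

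The genes most like MT1E were ranked in the same way, and the first 6 were CYB561D2 (a cytochrome b561 family reductase, r = 0.965), SERINC3 (a membrane protein, 0.954), OBFC2A (a single-stranded DNA binding protein, 0.953), CHD1L (a chromatin remodeller, 0.951), CIB1 (a calcium and integrin binding protein, 0.945) and COPB2 (a coatomer subunit, 0.945). The lowest were RGS19, a regulator of G protein signalling (−0.978), HDAC6, a deacetylase of tubulin (−0.970), and SERHL2 (−0.962). OBFC2A had 1.43, −2.21, −2.10 and −0.98 in affected dogs, −2.42 and 0.31 in escaper dogs and −1.71, −1.98, −2.41 and −2.17 in normal dogs. CYB561D2 moved far less, with 0.44, −0.20, −0.31 and −0.12 in affected dogs, −0.38 and 0.04 in escaper dogs and −0.25, −0.31, −0.35 and −0.38 in normal dogs. Without affected dog 1 the 6 highest r with MT1E were 0.867 to 0.941, and 77 genes reached 0.9 over all 10 dogs.

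The other genes of the pathways known to drive metallothioneins were followed in 9 lists of 193 genes, of which 106 were measured. By limma 0 of the 106 passed an adjusted p of 0.05 in any of the 3 comparisons. The escaper comparisons changed with the choice of escaper. In escaper against normal dogs the median of the immediate early and heat shock list moved most, to 2.21 without escaper dog 1 and −0.11 without escaper dog 2. With slide as a random block 1 of the 106 passed in affected against normal and 4 in escaper against normal dogs. Of all tested probes 114 and 522 passed in that setting. In affected against normal dogs 13 of the 106 (12.3%) had an unadjusted p under 0.05, 6 higher and 7 lower, against 12.4% of all tested probes. In escaper against normal dogs it was 18 (17.0%, against 18.4% of all probes), and in escaper against affected dogs 8 (7.55%, against 5.22%). The first 2 of these shares lay just below those of all probes.

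Zinc genes were 12 of 25 measured, with 6 positive and 6 negative differences in affected against normal dogs and a median of 0.00. MTF1 had no probe, and the zinc importer SLC39A14 failed the filter, while SLC30A1 was well above background in the dog channel on 17 of 20 arrays. SLC30A1, the zinc exporter that MTF1 is known to induce along with metallothioneins, had ratios of 0.48, 0.15, −0.11 and 0.02 in affected dogs and −0.52 and 2.43 in escaper dogs, against −0.50, −0.52, −0.31 and −1.11 in normal dogs. Its affected and normal values did not overlap, as for 5.28% of all probes in this direction, with a difference of 0.75 (SE 0.51, limma adjusted p = 0.572) that was 1.51 with processed signals, and escaper dog 2 was the highest dog. SLC39A10, a zinc importer, differed by 0.93 (SE 0.48, limma adjusted p = 0.467), and by 0.52 without affected dog 4.

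Copper genes were 6 of 15 measured, with a median of −0.10 in affected against normal dogs. COX11 and COX17, chaperones that deliver copper to cytochrome oxidase, differed by −0.85 (SE 0.29, limma adjusted p = 0.313) and −0.50 (SE 0.25, adjusted p = 0.441). COX17 had −0.34, 0.16, 0.42 and 0.26 in affected dogs and 0.29 and −0.84 in escaper dogs, against 0.52, 0.59, 0.70 and 0.69 in normal dogs. Its affected and normal values did not overlap, as for 7.42% of all probes in this direction, and escaper dog 2 was the lowest dog. The COX17 difference was −1.18 with processed signals and −0.25 with Cy3 arrays alone.

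Iron genes were 9 of 19 measured, with 7 positive differences in affected against normal dogs, a median of 0.23 and 3 at an unadjusted p under 0.05. Of all tested probes 53.0% were positive and 12.4% had such a p. SLC11A1, a metal transporter of phagocytes, had −0.62, −1.27, −2.14 and −0.32 in affected dogs and −1.36 and 0.88 in escaper dogs, against −2.98, −2.36, −3.24 and −3.30 in normal dogs. The affected and normal dogs did not overlap, as for 5.28% of all probes in this direction. The difference of 1.88 (SE 0.52) had a limma adjusted p of 0.254. IREB2, an iron sensor that binds transcripts, had 0.08, −0.63, −0.37 and −0.29 in affected dogs and −0.63 and 0.41 in escaper dogs, against −1.20, −0.86, −1.34 and −1.19 in normal dogs (difference of affected and normal 0.84, SE 0.24, limma adjusted p = 0.264). In escaper against normal dogs the median of the iron genes was 0.51, and the limma adjusted p of SLC11A1 and IREB2 was 0.189 for each.

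Oxidant defence genes were 19 of 35 measured, with a median of 0.07, and 3 had an unadjusted p under 0.05 in affected against normal dogs, against 12.4% of all tested probes. TXN, already named for its likeness to MT2A, differed by 1.14 (limma adjusted p = 0.388). NQO1, a quinone reductase, had −0.37, −0.36, −0.46 and −0.23 in affected dogs, against 0.74, 0.02, 0.03 and 0.02 in normal dogs (difference −0.56, SE 0.20, limma adjusted p = 0.321). GLRX, a glutaredoxin, had −1.57, 0.17, 0.30 and 0.32 in affected dogs, against 1.36, 0.63, 0.83 and 1.28 in normal dogs (difference −1.22, SE 0.46, limma adjusted p = 0.350, and −0.76 without affected dog 1). NQO1 and GLRX did not overlap between these groups, as for 7.42% of all probes in this direction, and both lay on the side opposite to TXN.

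Glucocorticoid response genes were 18 of 26 measured, with a median of 0.04 in affected against normal dogs. FKBP5, a chaperone that glucocorticoids induce, had 1.89, −2.39, −1.66 and −3.67 in affected dogs and −2.39 and −3.79 in escaper dogs, against −2.27, −2.35, −3.24 and −2.92 in normal dogs. It was high in affected dog 1 alone, and its difference of 1.24 (SE 0.99, limma adjusted p = 0.624) was 0.12 without that dog and 1.98 without affected dog 4. TSC22D3, another glucocorticoid target, differed by 0.03 (adjusted p = 0.982), with signs that turned between settings, and the receptor NR3C1 by −0.07 (adjusted p = 0.893), likewise with signs that turned.

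HSD11B1, the enzyme that regenerates active glucocorticoid, had 1.05, −1.42, −1.66 and −0.90 in affected dogs, against 1.01, 0.35, 1.16 and 0.66 in normal dogs (difference −1.53, SE 0.58, limma adjusted p = 0.346). FOXO1, a transcription factor of muscle atrophy, had 0.69, −0.97, −1.21 and −1.62 in affected dogs, against −2.08, −1.54, −1.83 and −2.35 in normal dogs (difference 1.17, SE 0.47, limma adjusted p = 0.373, and 0.68 without affected dog 1). Affected dog 1 was the highest affected dog in FKBP5, HSD11B1 and FOXO1, as in MT2A and MT1E. In HSD11B1, however, affected dog 1 at 1.05 lay inside the normal range of 0.35 to 1.16. The escaper dogs had 0.28 and −1.33 in HSD11B1 and −1.58 and −0.37 in FOXO1. Escaper dog 2 was not high in FKBP5 or HSD11B1, but in FOXO1 only affected dog 1 was higher.

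Interleukin 6 and STAT3 response genes were 12 of 22 measured, with a median of 0.04. TIMP1, an inhibitor of matrix proteases, had −2.33, −2.13, −2.48 and −0.95 in affected dogs and −2.81 and 0.52 in escaper dogs, against −3.32, −3.38, −2.95 and −3.48 in normal dogs (difference of affected and normal 1.31, SE 0.62, limma adjusted p = 0.422). LIFR, the receptor of leukaemia inhibitory factor, differed by −0.39 (SE 0.13, limma adjusted p = 0.311). TIMP1 was highest in escaper dog 2 and affected dog 4, and in affected dog 1, the dog highest in MT2A, it lay between the values of affected dogs 2 and 3.

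Hypoxia response genes were 16 of 20 measured, with a median of 0.06. VEGFA, the vascular growth factor, had −0.33, 0.07, −0.02 and 0.00 in affected dogs and 0.43 and 0.33 in escaper dogs, against 0.94, 0.44, 0.49 and 0.56 in normal dogs. Its difference of −0.68 (SE 0.15) had a limma adjusted p of 0.191, and of 0.0429 with slide as a random block. Since each slide held dogs of a single group, that block cannot separate slide from group, and the lower p adds no firmer ground. PDK1, a kinase that restrains pyruvate oxidation, differed by 0.59 (SE 0.22, adjusted p = 0.344). Immediate early and heat shock genes were 13 of 21 measured, with a median of 0.00 in affected against normal dogs and 0.71 in escaper against normal dogs. In that list ATF3, a stress transcription factor, had −1.28, −0.76, −1.93 and −1.15 in affected dogs and −1.72 and 1.52 in escaper dogs, against 2.41, −0.98, 0.73 and 1.10 in normal dogs (difference of affected and normal −2.10, SE 0.79, limma adjusted p = 0.344). IER3, an early response gene, had 0.54, −0.45, −0.65 and −0.12 in affected dogs and −1.01 and 1.16 in escaper dogs, against −1.02, −0.98, −1.18 and −1.14 in normal dogs (difference of affected and normal 0.91, SE 0.42, limma adjusted p = 0.413). The last list, of other metallothioneins, had 1 of 12 measured, which was MT3.

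Markers of several other cell types moved with MT2A across the dogs, and their part in the MT2A differences was not tested. The mean ratio of 14 macrophage genes was −1.25, −1.0, −1.09 and −0.19 in affected dogs and −1.24 and 1.07 in escaper dogs, against −1.61, −1.43, −1.39 and −1.75 in normal dogs. The mean of 12 fibroblast genes was −0.84, −0.19, 0.42 and 1.09 in affected dogs and −0.14 and 2.04 in escaper dogs, against −0.50, −0.71, −0.50 and −0.88 in normal dogs. Both were highest in escaper dog 2 and affected dog 4. In affected dog 1, the dog highest in MT2A, the fibroblast mean was the lowest of the affected dogs and the macrophage mean was below those of the other affected dogs but above all 4 normal dogs.

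The mean of 6 skeletal fibre genes was −1.26, 0.74, 0.18 and 0.14 in affected dogs and 0.83 and −1.70 in escaper dogs, against 0.39, 0.42, 0.34 and 0.53 in normal dogs. In affected against normal dogs all 6 differences were negative. In escaper against normal dogs 5 were negative and 1 positive. Only the positive one had an unadjusted p under 0.05 in limma, as 18.4% of all tested probes had in either direction. The 2 dogs highest in MT2A, affected dog 1 and escaper dog 2, were the 2 lowest in skeletal fibre genes. The brightest 5% of tested probes as a whole were also lowest in these 2 dogs, with medians of −0.30 and −0.46. In the other dogs those medians were −0.07 to 0.06, and the part of this offset in the fibre means was not tested. Over the 10 dogs r with MT2A was −0.852 for the skeletal fibre mean, 0.666 for the macrophage mean and 0.488 for the fibroblast mean, and without affected dog 1 it was −0.781, 0.960 and 0.927. It was −0.889 for 2 measured T and NK cell markers of 11, NKG7 and IL7R, and −0.842 without affected dog 1. Their mean was −1.33, −0.24, 0.02 and −0.10 in affected dogs and 0.08 and −0.58 in escaper dogs, against 0.45, 0.21, 0.20 and 0.20 in normal dogs, while CD8A was well above background on 0 arrays. The 2 markers did not agree. NKG7 differed by −1.46 in affected and −1.04 in escaper against normal dogs, and IL7R by 0.10 and 0.02. Their mean thus mostly followed NKG7 and is no measure of T and NK cells as a whole. For 6 endothelial, 7 adipocyte and 4 smooth muscle genes r was 0.356, −0.495 and −0.270.

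**Figure D5:**
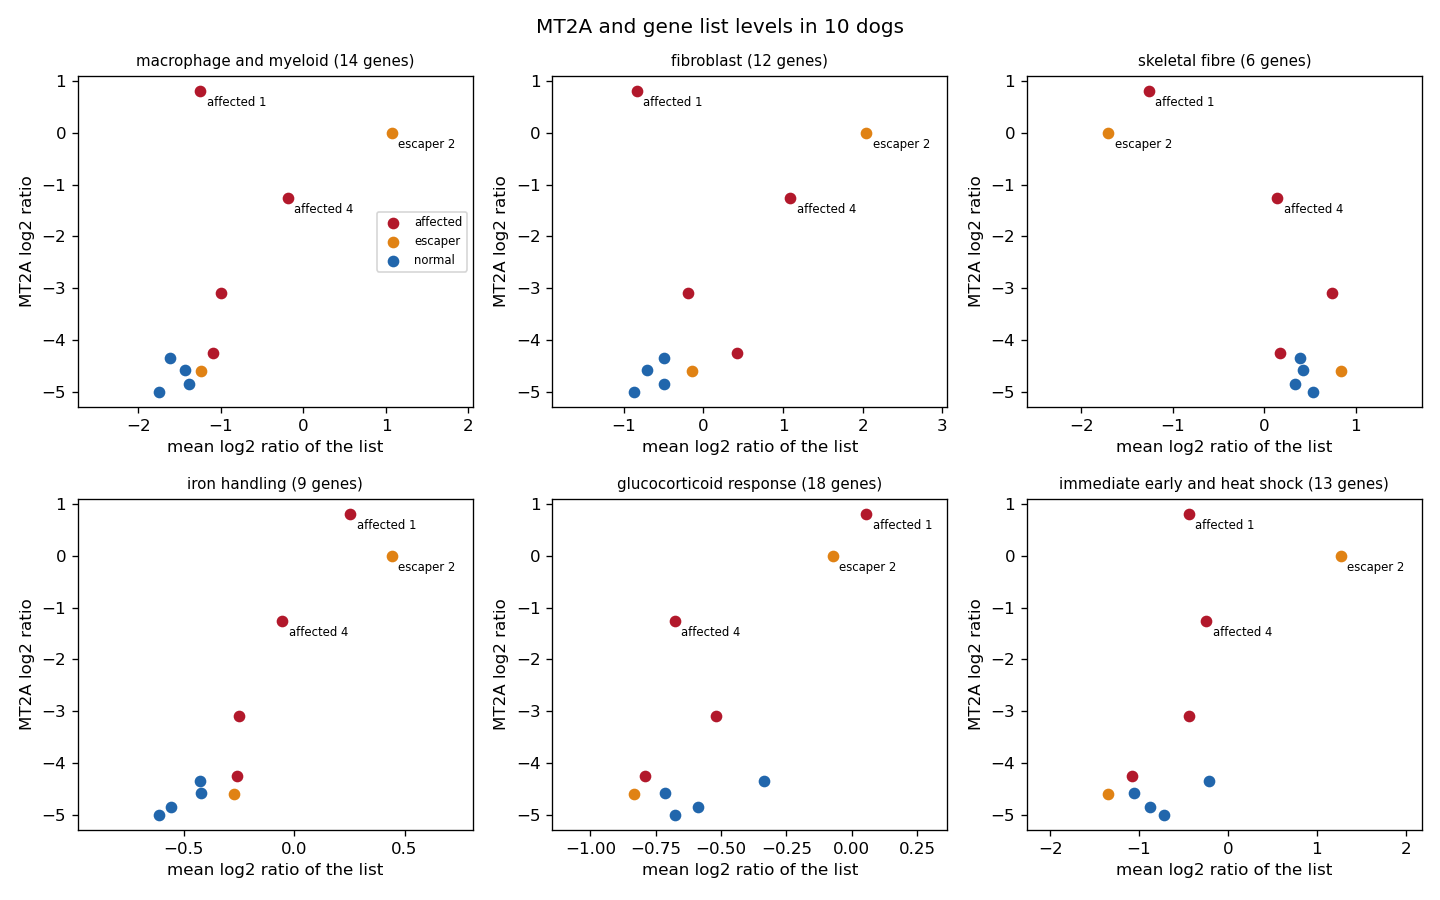
Mean log2 ratio of the measured genes of 6 lists in each dog against the log2 ratio of MT2A probe 1, with the groups marked by colour; points are dogs. Affected dog 1 at 0.81 and escaper dog 2 at 0.00 on the MT2A axis have the lowest skeletal fibre means, −1.26 and −1.70, while their fibroblast means are −0.84 and 2.04.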

How the data were processed

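Two-colour arrays of 10 dogs were used, 20 in all, with the dog in each dye once. The deposited scanner files hold mean and local background intensity per spot, and processed intensity already detrended and dye-normalised, from Feature Extraction 9.5.3.1, as the authors ran it per the file headers. Log2 ratios in the deposited table equalled those of dog over reference computed from processed signals (r = 1). Its steps are not given in the sources used here, its columns are not centred (medians −0.16 to 0.25), and it served as an alternative. Intensities were corrected with normexp (offset 50) and normalised by loess within each array in limma 3.58.1 (R 4.3.3). Controls and outlier-flagged spots were dropped, while saturated ones stayed in. Where the deposited table served as an alternative, its outlier-flagged spots were kept. The 2 arrays of a dog were averaged, which leaves 1 value per dog.

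The filter asked for a dog channel well above background on each array of 2 or more dogs. Lists were counted in a limma fit of all 10 dogs in 3 groups with Benjamini-Hochberg adjustment over 16008 probes, after the code was tested on simulated data. The brightest probe stands for a gene, and symbols were updated through RefSeq accessions. Members and lists were chosen with earlier results of these data known, and MT2A and MT1E were given no test. Named genes were the metallothionein probes, MTF1, SLC30A1, SLC39A14, NR3C1, FKBP5 and TSC22D3, the 2 genes of smallest p in each list, and the 6 most and 3 least similar genes to MT2A and to MT1E. The number of dogs limits the precision. The dogs carry separate names in the labels, and p-values measure only the spread between them.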

Additional observations from a re-analysis of the deposited data

Results flagged for a closer look

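In groups of 4 dogs, a value stood apart where its gap to the nearest dog, divided by the group's range, exceeded Dixon's critical value at 95%. MT2A, MT1E and the genes named for their likeness to them were left out of this check, since they were chosen on these values. For the other 23 probes and genes named, in affected and in normal dogs, 3 of 46 checks stood apart (6.52%). Many of these genes were chosen by smallest p in affected against normal dogs, which rests on the same values. The chance rate of about 1 in 20 therefore does not apply to them. Affected dog 1 had an unnamed probe 1 ratio of 1.93 (nearest affected dog −2.77) and a GLRX ratio of −1.57 (nearest 0.17). Normal dog 1 had an NQO1 ratio of 0.74 (nearest normal dog 0.03).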

How the results depend on the processing

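MT2A and MT1E kept a higher mean in affected than in normal dogs under every alternative run, from 1.31 to 3.52 for MT2A and from 0.85 to 2.38 for MT1E. The MT2A ratio to the reference in normal dogs was −2.28 as the mean of both probes, of which the second was dim. Probes passing in affected against normal dogs numbered 3, against 29 with processed signals, 114 with slide as a random block, 7 with Cy5 arrays alone, 1 with Cy3 arrays alone and 0 to 113 with a dog left out. In escaper against normal dogs they numbered 0, against 4 with processed signals, 1 without the filter on dim probes, 522 with slide as a block and 0 to 3920 with a dog left out (3920 without escaper dog 1). In escaper against affected dogs leaving out a dog gave 0 to 1755 (1755 without escaper dog 1). Of the pathway genes 1 (VEGFA, limma adjusted p = 0.0429) passed with slide as a block in affected against normal dogs and 4 in escaper against normal dogs. With a dog left out the count was 0 to 31 in escaper against normal and 0 to 17 in escaper against affected dogs, both highest without escaper dog 1, and 1 in each without escaper dog 2. Leaving out an escaper dog leaves 1 dog in that group, so the counts of probes and of pathway genes in those settings are no firmer result. TSC22D3 turned to −0.16 with median centring, to −0.0427 with Cy3 arrays alone and ranged from −0.36 to 0.21 with a dog left out. NR3C1 turned to 0.22 with Cy5 arrays alone and to 0.0248 and 0.0140 without affected dog 1 and normal dog 3 (range −0.17 to 0.0248). With processed signals the differences of PDK1 (1.03), HSD11B1 (−3.10), LIFR (−0.68) and NQO1 (−0.92) in affected against normal dogs moved by over 1.5 times. The dog channel was well above background on 14 of 20 arrays for PDK1 and HSD11B1 and on 20 of 20 for LIFR and NQO1. The causes of these changes were not tested. Each slide held dogs of a single group, so the slide block cannot separate slide from group, and its higher counts are no firmer result. Median centring shifted the median of all probes to −0.17 in escaper against normal dogs and −0.18 in escaper against affected dogs. Saturation limits MT2A at both ends of its range. No paired analysis was run, because the groups hold different dogs and the labels pair no dogs across groups.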
